A study of Rattus norvegicus with 12 samples.

Results

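Prostaglandins are lipid signals made from arachidonate, and this account covers 9 genes of their synthesis, transport, breakdown and receptors: Ptgs1, Ptgs2, Ptges, Ptgds, Slco2a1, Hpgd, Ptger1, Ptger3 and Ptger4. Every probe set (the group of short probes that reads 1 transcript) whose array annotation names 1 of these genes alone was taken, which gave 15 probe sets. The table holds 31042 probe sets other than controls, of which 20832 name a single gene, 14218 genes in all. The set was selected on measured values of these same arrays, the higher Slco2a1 and the lower Ptgds signal of diabetic rats, so the diabetes differences of those 2 genes are given as a description, with no p-value, and support nothing. Of the other 7 genes, 5 had probe sets bright enough for the main test, and Ptger1 and Ptger4 did not.

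The study measured RNA of kidney cortex from male rat littermates on 12 arrays, 3 in each of 4 groups. Diabetic rats at 10 weeks of age and diabetic rats at 20 weeks had received streptozocin, which kills pancreatic beta cells, at 65 mg/kg intravenously when 4 or 14 weeks old. Nondiabetic rats at 10 weeks and at 20 weeks had received an injection of vehicle at the same ages. After 3 days, pellets of insulin palmitate were placed in diabetic rats and pellets of the palmitate vehicle in nondiabetic rats, and tissue was taken 6 weeks after the start. All rats fed freely, and the strain is not given in the sources used here. Insulin was given only with diabetes and no group had streptozocin without diabetes, so diabetes, streptozocin and insulin cannot be told apart. The sample labels give blood glucose of 350 to 450 mg/dl in diabetic rats, and the series text gives 350 mg/dl at both ends of its range. Nothing ties an array to a named rat, so a p-value here reflects only how much these samples scatter, which may be technical.

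The deposited values are linear signals that the authors had scaled, with a trimmed mean of 500.2 on every array, so each value is relative to the other transcripts on its array. The arrays correlated with each other at 0.907 to 0.928 over all probe sets. Replicate 1 of the diabetic group at 10 weeks carries a label that names a vehicle pellet, unlike the rest of its group. Replicate 1 of the nondiabetic group at 20 weeks had a Gapdh 3'/5' signal ratio, a gauge of RNA integrity, of 2.09, against 1.41 to 1.75 on the other 11 arrays. Among those, the diabetic arrays at 20 weeks had ratios of 1.60, 1.68 and 1.75, and the rest 1.41 to 1.54. The diabetes differences of each gene at either age are also given without these replicate 1 arrays of the 2 groups, which are called both arrays named above. All 10 proximal tubule markers looked up lay above the limit on dim probe sets, with summed signals of 148920 to 171287 over the 12 arrays. Cortex with some medulla would give this too, so it is no check that the samples held cortex alone.

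Cyclooxygenases turn arachidonate into prostaglandin H2, which synthases convert to single prostaglandins such as E2 and D2. Slco2a1 carries prostaglandins into cells, where Hpgd inactivates them, and receptors on the cell surface pass the signal of those that remain outside. In the kidney, prostaglandins act on renal blood flow, renin release and the handling of salt and water.

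The upstream sequences of the 2 genes whose signals selected the set are shown to place them in the genome. Both are from RefSeq on build GRCr8, run 5′ to 3′ on the strand of the gene and span 250 bases before to 50 bases after its annotated start. Slco2a1 lies on the plus strand and its window is chr8:112467489-112467788. Ptgds lies on the minus strand and its window is chr3:28682929-28683228. Capitals mark every match on either strand of TATAAA (the TATA box), CCAAT (a motif of NF-Y), GGGCGG (a motif of Sp1), TGACGTCA (the cyclic AMP element), CANNTG (the E-box), TGTTCT (an arm of the steroid receptor element), TGANTCA (a motif of AP-1) or TGTTTAC (a motif of forkhead factors).
Slco2a1: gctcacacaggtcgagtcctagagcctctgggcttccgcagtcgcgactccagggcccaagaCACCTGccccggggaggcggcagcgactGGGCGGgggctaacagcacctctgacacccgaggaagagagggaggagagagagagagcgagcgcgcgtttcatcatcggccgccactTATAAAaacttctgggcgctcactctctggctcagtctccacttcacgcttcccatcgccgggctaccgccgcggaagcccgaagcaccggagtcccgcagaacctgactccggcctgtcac
Ptgds: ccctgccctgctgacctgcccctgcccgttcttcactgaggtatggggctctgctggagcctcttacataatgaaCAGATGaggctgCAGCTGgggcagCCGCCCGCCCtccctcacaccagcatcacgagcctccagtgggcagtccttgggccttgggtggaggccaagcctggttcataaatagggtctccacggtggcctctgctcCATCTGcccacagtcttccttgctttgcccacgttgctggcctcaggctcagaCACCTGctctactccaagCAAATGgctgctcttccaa
The Slco2a1 window holds TATAAA once, starting 72 bases before the start site, with GGGCGG at 160 and CANNTG at 188 bases before it. The Ptgds window holds GGGCGG on the opposite strand in 2 overlapping copies, at 151 and 147 bases before the start site, and 5 copies of CANNTG. The letters TATAAA are found in 14.2% of 33469 promoter windows of this length, GGGCGG in 33.1% and CANNTG in 72.1%. The other motifs had no match in either window and are found in 37.5% of windows for CCAAT, 1.83% for TGACGTCA, 20.7% for TGTTCT, 7.33% for TGANTCA and 3.78% for TGTTTAC. GC content was 65% for Slco2a1 and 60.7% for Ptgds, with a median of 51.7% over all windows. A match is a description of these letters, not a site or a cause.

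Of the 15 probe sets, 11 of 7 genes passed a filter that left out the dimmest 40% of probe sets, which set the lowest admitted geometric mean signal at 70.9. The 4 that did not pass are both Ptger1 probe sets, the Ptger4 probe set and 1 of 2 for Ptgs1. Leaving aside Slco2a1 and Ptgds, 8 probe sets of 5 genes were tested. Differences are log2 of diabetic over nondiabetic signal with the standard error (SE) of a limma fit over 18625 probe sets, with p-values adjusted over all of them by Benjamini-Hochberg and called under 0.05.

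**Figure D1:**
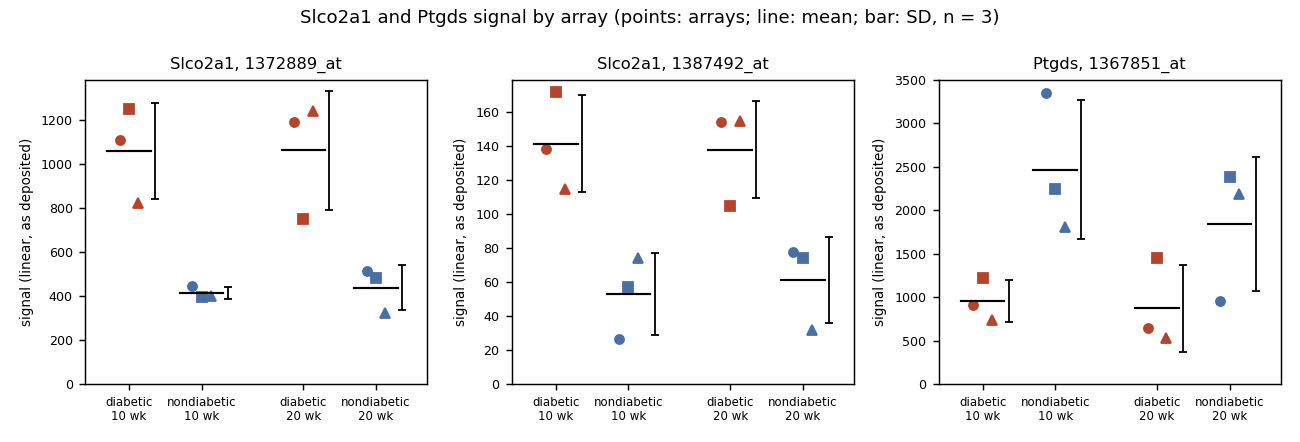
Linear signal of both Slco2a1 probe sets and of Ptgds on each of the 12 arrays, for diabetic and nondiabetic rats at 10 and 20 weeks. Points are arrays, with the same shape for the same replicate number, lines are means and bars are SD (n = 3). All diabetic points of Slco2a1 lie above all nondiabetic points of the same age, and 1 diabetic and 1 nondiabetic array at 20 weeks cross for Ptgds.

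Slco2a1, the carrier that takes prostaglandins up into cells, gave a higher signal in diabetic cortex at both ages. On its brighter probe set (1372889_at), the signals were 1108, 1248 and 823 in diabetic rats at 10 weeks, against 445, 395 and 398 in nondiabetic rats. At 20 weeks they were 1192, 751 and 1243 in diabetic rats, against 513, 480 and 322 in nondiabetic rats. The lowest diabetic array lay above the highest nondiabetic one at each age. The diabetic level was 2.53-fold higher at 10 weeks, a log2 difference of 1.34 ± 0.22 (SE, n = 3 each), and 2.41-fold higher at 20 weeks, 1.27 ± 0.22. The change of the diabetes difference with age (20 weeks less 10 weeks) was -0.07 ± 0.31. Without both arrays named above, the log2 differences of this Slco2a1 probe set were 1.30 at 10 weeks and 1.40 at 20 weeks.

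The dimmer Slco2a1 probe set (1387492_at) had the same direction. Its signals were 138, 171 and 114 in diabetic rats at 10 weeks, against 26.7, 57.1 and 74.3 in nondiabetic rats. The 20-week signals were 154, 105 and 154 in diabetic rats, against 77.6, 73.8 and 31.9 in nondiabetic rats. Again the groups did not overlap at either age. The log2 difference was 1.53 ± 0.43 at 10 weeks and 1.25 ± 0.43 at 20 weeks, or 1.53 and 1.48 without both arrays named above. The geometric mean of this Slco2a1 probe set over the 12 arrays was 84.8, close to the limit of 70.9, so the size of the fold difference is uncertain. Its nondiabetic means, 52.7 at 10 weeks and 61.1 at 20 weeks, lay under that limit. The diabetic means, 141 and 138, lay above it. This probe set thus passed the filter through the diabetic arrays, and its direction adds no support to that of the brighter one.

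Age was not used to select Slco2a1, and its age contrasts share the arrays of the diabetes contrasts. On the brighter probe set the log2 difference of 20 weeks over 10 weeks was -0.01 ± 0.22 in diabetic rats (limma, adjusted p = 0.989) and 0.06 ± 0.22 in nondiabetic rats (adjusted p = 0.952). Neither passed the test, and without both arrays named above the Slco2a1 age differences were 0.03 in diabetic and -0.07 in nondiabetic rats.

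Ptgds, the synthase that makes prostaglandin D2 from prostaglandin H2, gave a lower signal in diabetic cortex. Its signals at 10 weeks were 908, 1218 and 742 in diabetic rats, against 3353, 2243 and 1806 in nondiabetic rats. In the older rats they were 649, 1446 and 526 in diabetic rats, against 955, 2379 and 2185 in nondiabetic rats. The groups were apart at 10 weeks. At 20 weeks replicate 2 of the diabetic rats lay above replicate 1 of the nondiabetic rats, which is the array with the highest Gapdh ratio. The diabetic level was 2.55-fold lower at 10 weeks, a log2 difference of -1.35 ± 0.40, and 2.16-fold lower at 20 weeks, -1.11 ± 0.40. Without both arrays named above, the Ptgds differences were -1.33 at 10 weeks and -1.53 at 20 weeks. Leaving out 1 array at a time moved the 20-week value of Ptgds between -1.55, without diabetic replicate 2, and -0.82, without diabetic replicate 3. Its change with age was 0.24 ± 0.56. In the age contrasts Ptgds gave -0.25 ± 0.40 in diabetic rats (limma, adjusted p = 0.835) and -0.48 ± 0.40 in nondiabetic rats (adjusted p = 0.740). Neither passed the test or kept its size: without both arrays named above the Ptgds value in nondiabetic rats was -0.07. In diabetic rats it ran between -0.68, without diabetic replicate 2 of 20 weeks, and 0.20, with the Gapdh ratio as a covariate, so no direction is read from it.

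**Figure D2:**
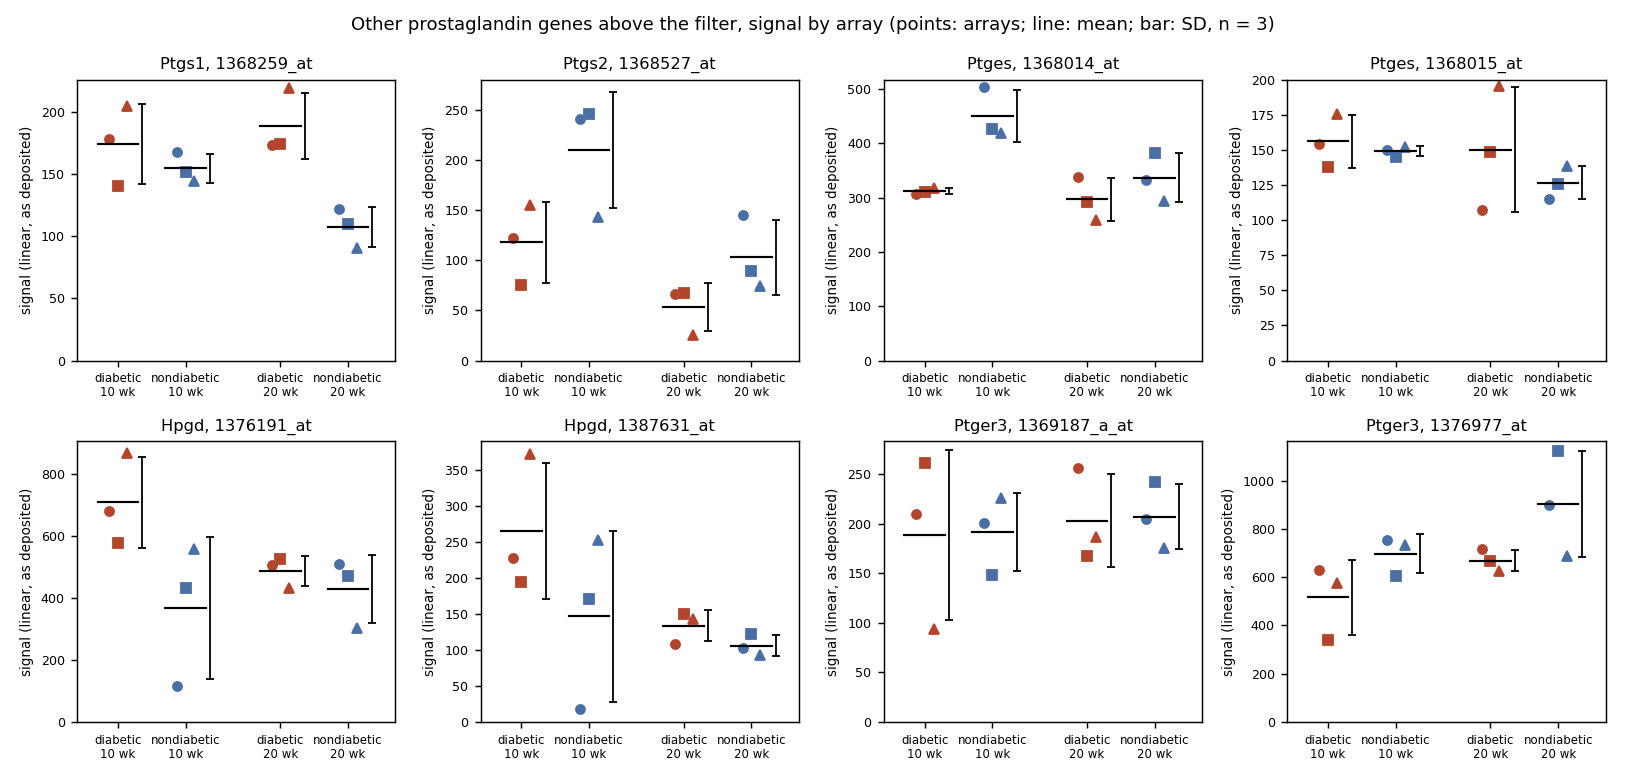
Linear signal of the 8 probe sets of Ptgs1, Ptgs2, Ptges, Hpgd and Ptger3 that passed the filter, on each of the 12 arrays. Points are arrays, with the same shape for the same replicate number, lines are means and bars are SD (n = 3). At 20 weeks the Ptgs1 points of diabetic rats, 173 to 220, all lie above those of nondiabetic rats, 90.7 to 122.

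None of the 8 other probe sets passed the limma test of diabetes at 10 weeks, at 20 weeks or over both ages, so none of these genes is said to have changed. At an unadjusted p under 0.05 there were 3 of 8 at 10 weeks, 2 of 8 at 20 weeks and 5 of 8 over both ages, where all probe sets tested gave 10.9%, 16.8% and 17.9%. The share of all probe sets called after adjustment was 0.306% at 10 weeks, 2.84% at 20 weeks and 4.47% over both ages. Of the 8, 4 had positive and 4 had negative differences in each of these contrasts. The median over all probe sets tested was -0.02 at 10 weeks, -0.00 at 20 weeks and -0.01 over both ages.

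Ptgs1, the cyclooxygenase that most tissues make steadily, came nearest to the threshold. At 10 weeks its signals (1368259_at) were 178, 140 and 205 in diabetic rats, against 168, 152 and 145 in nondiabetic rats, which overlap. At 20 weeks they were 173, 174 and 220 in diabetic rats, against 122, 110 and 90.7 in nondiabetic rats, which do not. The log2 difference was 0.16 ± 0.21 at 10 weeks (limma, adjusted p = 0.832) and 0.81 ± 0.21 at 20 weeks (adjusted p = 0.0621). Over the alternatives the Ptgs1 adjusted p at 20 weeks ran between 0.0532 and 0.201. The Ptgs1 differences were 0.13 at 10 weeks and 0.91 at 20 weeks without both arrays named above. The difference between the ages was 0.65 ± 0.30 (adjusted p = 0.616). The second Ptgs1 probe set (1381806_at) did not pass the filter, with signals of 3.28 to 51.7.

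Ptgs2, the inducible cyclooxygenase, which in cortex is known from the macula densa and nearby thick ascending limb, had lower mean signals in diabetic rats at both ages. Its signals were 122, 75.6 and 155 in diabetic rats at 10 weeks, against 241, 246 and 143 in nondiabetic rats. The 20-week signals were 66.4, 67.3 and 25.3 in diabetic rats, against 145, 89.4 and 74.5 in nondiabetic rats. The groups overlapped at 10 weeks and did not at 20 weeks. The log2 difference was -0.86 ± 0.43 at 10 weeks (limma, adjusted p = 0.507), -1.03 ± 0.43 at 20 weeks (adjusted p = 0.246) and -0.94 ± 0.30 over both ages (adjusted p = 0.110). In this bulk tissue fewer cells of a type and less RNA per cell cannot be told apart. The Ptgs2 signal was under 100 on 6 of the 12 arrays, so the size of its differences is uncertain. All its diabetic signals at 20 weeks lay under the filter limit of 70.9, so the lack of overlap there rests on dim signals. With both arrays named above left out, the Ptgs2 differences were -0.91 at 10 weeks and -0.76 at 20 weeks. With 1 array left out, the Ptgs2 value nearest 0 was -0.57 at 10 weeks, without diabetic replicate 2, and -0.56 at 20 weeks, without diabetic replicate 3.

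Ptges, the inducible synthase of prostaglandin E2, is read by 2 probe sets that differed. On the brighter probe set (1368014_at) the signals were 308, 311 and 318 in diabetic rats at 10 weeks, against 505, 426 and 419 in nondiabetic rats. In the older rats they were 339, 292 and 259 in diabetic rats, against 333, 383 and 293 in nondiabetic rats. The groups were apart at 10 weeks and overlapped at 20 weeks. The log2 difference was -0.52 ± 0.15 at 10 weeks (limma, adjusted p = 0.213), -0.18 ± 0.15 at 20 weeks (adjusted p = 0.589) and -0.35 ± 0.10 over both ages (adjusted p = 0.0829). The dimmer probe set (1368015_at) ranged over 138 to 176 in diabetic and 145 to 152 in nondiabetic rats at 10 weeks, and over 107 to 196 in diabetic and 115 to 139 in nondiabetic rats at 20 weeks. Its groups overlapped at both ages, with differences of 0.06 (adjusted p = 0.954) and 0.21 (adjusted p = 0.706). Without both arrays named above, the Ptges differences were -0.51 at 10 weeks and -0.18 at 20 weeks on the brighter probe set, and 0.06 and 0.14 on the dimmer one.

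Hpgd, the dehydrogenase that begins prostaglandin breakdown, had higher mean signals in diabetic rats at 10 weeks on both of its probe sets. On the brighter one (1376191_at) the signals were 679, 576 and 866 in diabetic rats at 10 weeks, against 115, 432 and 557 in nondiabetic rats, with no overlap. At 20 weeks they were 506, 524 and 431 in diabetic rats, against 510, 469 and 304 in nondiabetic rats, with overlap. The log2 difference was 1.21 ± 0.44 at 10 weeks (limma, adjusted p = 0.325) and 0.22 ± 0.44 at 20 weeks (adjusted p = 0.852). Nondiabetic replicate 1 was the low array at 10 weeks, and without it the Hpgd difference was 0.51.

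On the dimmer Hpgd probe set (1387631_at) the signals were 228, 195 and 372 in diabetic rats at 10 weeks, against 18.6, 170 and 252 in nondiabetic rats. The same array was low there. At 20 weeks the signals were 109, 150 and 143 in diabetic rats, against 103, 122 and 92.9 in nondiabetic rats. The groups overlapped at both ages. The difference at 10 weeks was 1.46 ± 0.71 (limma, adjusted p = 0.486), and 0.30 without nondiabetic replicate 1. At 20 weeks it was 0.33 (adjusted p = 0.860). Without both arrays named above, the Hpgd differences were 1.23 at 10 weeks and 0.36 at 20 weeks on the brighter probe set, and 1.54 and 0.32 on the dimmer one.

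Ptger3 encodes the EP3 receptor for prostaglandin E2, which lowers cyclic AMP and in the kidney opposes vasopressin. On its brighter probe set (1376977_at) the signals were 630, 340 and 577 in diabetic rats at 10 weeks, against 753, 607 and 733 in nondiabetic rats. The 20-week signals were 715, 666 and 626 in diabetic rats, against 900, 1124 and 686 in nondiabetic rats. The groups overlapped at both ages. The log2 difference was -0.48 ± 0.22 at 10 weeks (limma, adjusted p = 0.460), -0.41 ± 0.22 at 20 weeks (adjusted p = 0.384) and -0.44 ± 0.16 over both ages (adjusted p = 0.147). The other Ptger3 probe set (1369187_a_at) ranged over 94.1 to 261 in diabetic and 149 to 226 in nondiabetic rats at 10 weeks, and over 167 to 256 in diabetic and 176 to 242 in nondiabetic rats at 20 weeks. Its differences were -0.13 (adjusted p = 0.926) and -0.04 (adjusted p = 0.969). Without both arrays named above, the Ptger3 differences were -0.65 at 10 weeks and -0.39 at 20 weeks on the brighter probe set, and -0.27 and -0.04 on the other. On the brighter Ptger3 probe set, the value without diabetic replicate 2 was -0.20 at 10 weeks, and that without nondiabetic replicate 2 was -0.23 at 20 weeks.

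Ptger1 and Ptger4, the EP1 and EP4 receptors for prostaglandin E2, were dim on all 12 arrays. The Ptger1 probe sets ran between 2.13 and 40.4 (1369254_a_at) and between 2.05 and 69.7 (1375803_at), and the Ptger4 probe set (1368941_at) between 4.88 and 85.2. With no filter, none of the dim probe sets was called by limma. The lowest adjusted p among them was 0.502, for Ptger1 (1375803_at) at 20 weeks with a log2 difference of -1.83 ± 0.98.

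**Figure D3:**
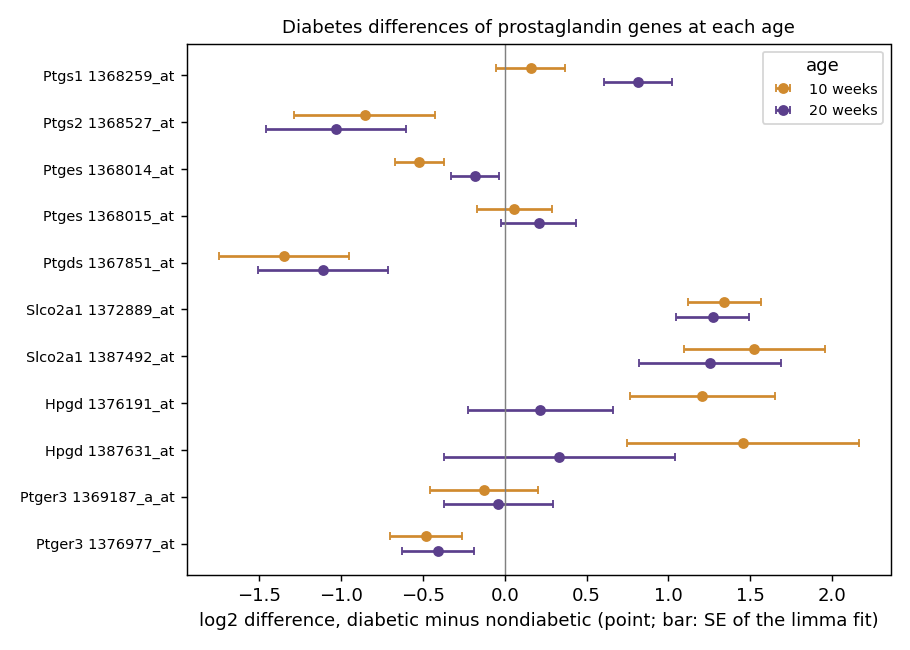
Log2 difference of diabetic minus nondiabetic rats for the 11 probe sets past the filter, at 10 and at 20 weeks. Points are estimates and bars are the SE of the limma fit. Both Slco2a1 probe sets lie to the right of 0 and Ptgds to the left at both ages, which is what selected them, and the Hpgd probe sets have the widest bars.

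Groups of arrays that do not overlap were found for 2 of the 8 probe sets at 10 weeks, Hpgd (1376191_at) higher and Ptges (1368014_at) lower in diabetic rats. In the older rats they were found for 2 of the 8, Ptgs1 higher and Ptgs2 lower in diabetic rats. Over all probe sets tested, 17.0% did not overlap at 10 weeks and 20.9% at 20 weeks, so 2 of 8 is near the background at either age. No probe set of the 8 was called for a difference in the diabetes effect between the ages. The share called over all probe sets was 0.0% by limma, and at an unadjusted p under 0.05 there were 1 of 8, for Ptgs1, where all probe sets gave 7.95%.

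Between the ages, none of the 8 probe sets was called by limma in diabetic rats, where 0.66% of all probe sets were, or in nondiabetic rats, where 0.0% were. The share in diabetic rats stands on 123 probe sets, which became 7 without diabetic replicate 3 of 10 weeks and 27 without both arrays named above. At an unadjusted p under 0.05 there were 1 of 8 in diabetic rats (13.6% of all) and 3 of 8 in nondiabetic rats (8.61% of all). Ptgs2 had the lowest adjusted p in diabetic rats, with a log2 difference of 20 weeks over 10 weeks of -1.22 ± 0.43 (limma, adjusted p = 0.235). Its ages did not overlap, but all its 20-week diabetic signals lay under the filter limit of 70.9. In nondiabetic rats the Ptgs2 difference was -1.05 ± 0.43 (adjusted p = 0.560), with overlap. In diabetic rats 3 of the 8 did not overlap, all lower at 20 weeks: Ptgs2 and both Hpgd probe sets, against 21.5% of all probe sets. In nondiabetic rats 3 of the 8 did not overlap, all lower at 20 weeks: Ptgs1 and both Ptges probe sets, against 12.1% of all. The age differences of those in nondiabetic rats were -0.53 ± 0.21 for Ptgs1 (adjusted p = 0.544), -0.42 ± 0.15 for Ptges on 1368014_at (adjusted p = 0.511) and -0.24 for Ptges on 1368015_at (adjusted p = 0.778).

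**Figure D4:**
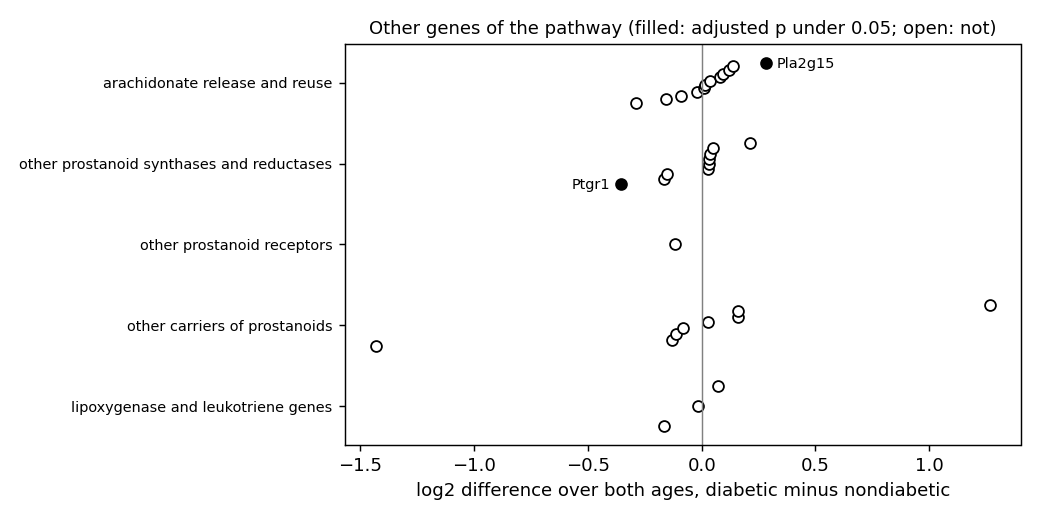
Log2 difference over both ages, diabetic minus nondiabetic, for the genes of 5 further lists that passed the filter, 1 point a gene on its brightest probe set. Filled points had an adjusted p under 0.05: Pla2g15 to the right of 0 and Ptgr1 to the left.

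Other genes of the pathway were counted in 5 lists chosen by role. Over these lists 2 of 33 genes past the filter, 6.06%, were called over both ages, near the 4.47% of all probe sets. Of 17 genes of arachidonate release and reuse, 12 passed the filter and 1 rose. They are mostly phospholipases, with Acsl4, Lpcat3 and Mboat7, which return arachidonate to membranes, and Anxa1, which inhibits phospholipase. This was Pla2g15, a lysosomal phospholipase, with mean signals of 1057 in diabetic and 889 in nondiabetic rats at 10 weeks, and 1110 in diabetic and 893 in nondiabetic rats at 20 weeks (0.28 ± 0.07, limma, adjusted p = 0.0438). Of 13 other prostanoid synthases and reductases, 9 passed and 1 fell. This was Ptgr1, which reduces the products of Hpgd further, with mean signals of 1091 in diabetic and 1366 in nondiabetic rats at 10 weeks, and 1072 in diabetic and 1396 in nondiabetic rats at 20 weeks (-0.35 ± 0.08, adjusted p = 0.0210). All 8 other carriers passed the filter, with 1 of 8 genes of the receptor list (Ptgfrn) and 3 of 12 lipoxygenase and leukotriene genes, and none of these was called. Of the receptor list, Ptger2, Ptgdr2, Ptgfr, Tbxa2r and Pparg did not pass, and Ptgdr and Ptgir had no match on the array. The median of that list therefore describes Ptgfrn alone and none of these. The medians over both ages were 0.03 for arachidonate release and reuse, 0.03 for synthases and reductases, -0.12 for the single receptor-list gene Ptgfrn, -0.03 for carriers and -0.02 for lipoxygenase genes, against -0.01 for all probe sets. No gene of these lists was called at 10 weeks alone, at 20 weeks alone, for the difference between ages or between the ages. The ends of the carriers' range over both ages, named after their values were seen, were Slc22a7 at 1.27 ± 0.39 (adjusted p = 0.0929) and Slco1a1 at -1.43 ± 0.91 (adjusted p = 0.457). Slc22a7 gave 1.35 at 10 weeks and 1.19 at 20 weeks. The Slco1a1 average joins 0.76 ± 1.29 at 10 weeks, smaller than its SE, and -3.63 ± 1.29 at 20 weeks (limma, adjusted p = 0.172). Mean Slco1a1 signals at 10 weeks were 1152 in diabetic and 1198 in nondiabetic rats, so no direction is read at that age. Its signals in nondiabetic rats at 10 weeks ran from 44.8 to 2827.

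Markers of cell types that a kidney sample can hold, inner medulla included, moved with diabetes in some lists, and their part in the Slco2a1 and Ptgds values was not tested. No marker was at 0 on any array, and the counts stand beside 4.47% of all probe sets called over both ages. Of 7 podocyte markers past the filter, 3 fell over both ages by limma: Nphs1 by 0.48 (adjusted p = 0.0157), Ptpro by 0.40 (adjusted p = 0.0339) and Dach1 by 0.36 (adjusted p = 0.0406), with a list median of -0.36. The summed podocyte signal was 7575 to 10630 in diabetic and 9585 to 11006 in nondiabetic rats at 10 weeks, and 7956 to 9761 in diabetic and 9325 to 10298 in nondiabetic rats at 20 weeks. Of 4 inner medulla markers, Aqp4 (1.14) and Slc5a3 (0.78) rose over both ages, while Akr1b1 (-0.15) and Slc14a2 (-0.45) were not called, with a list median of 0.31. Akr1b1 also stands in the list of synthases and reductases. The inner medulla sum at 20 weeks was 3199 to 3828 in diabetic and 1766 to 2456 in nondiabetic rats, while at 10 weeks it was 1941 to 2742 in diabetic and 1658 to 2084 in nondiabetic rats. Of 9 endothelial markers 1 fell, Vwf by 1.78, and the sum was 10294 to 11546 in diabetic and 10656 to 12123 in nondiabetic rats at 10 weeks, and 10074 to 10529 in diabetic and 10786 to 12476 in nondiabetic rats at 20 weeks. Of 10 collecting duct markers, Aqp2 (0.55) and Fxyd4 (0.78) rose, and Hsd11b2 (-0.62), Atp6v1b1 (-0.37) and Krt7 (-0.74) fell, with a sum of 17018 to 22464 in diabetic and 19130 to 22337 in nondiabetic rats at 10 weeks, and 15620 to 17634 in diabetic and 18244 to 18986 in nondiabetic rats at 20 weeks. Of 6 leukocyte markers Csf1r rose (0.36), and of 10 proximal tubule markers Slc13a3 fell (-0.29). Of 6 fibroblast markers none was called over both ages, and Nt5e fell at 20 weeks (-0.87). Other lists also had calls at 20 weeks, where 2.84% of all probe sets were called. There 1 proximal tubule, 1 endothelial and 1 collecting duct marker fell, and 2 inner medulla markers rose. At 10 weeks, where 0.306% of all were called, 1 collecting duct marker rose and 1 fell. None was called among 8 mesangial and smooth muscle, 6 thick ascending limb or 4 fat markers, whose medians over both ages were -0.06, -0.20 and 1.01. All 4 fat markers had positive differences at both ages. The fat sum, over 6 genes, was 1982 to 2872 in diabetic and 1541 to 2538 in nondiabetic rats at 10 weeks. At 20 weeks it was 2501 to 3202 in diabetic and 1848 to 2265 in nondiabetic rats.

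The genes whose log2 signal was most like that of Slco2a1 over the 12 arrays were ranked among 10583 genes by Pearson's r. The points share the 4 groups, so r carries the diabetes difference, and it is given as a description. The highest were Mthfd1 (0.946), Kmo (0.942), Lonp2 (0.938), Supt3h (0.935) and Amt (0.931). Kmo, kynurenine 3-monooxygenase, averaged 5860 ± 371 in diabetic and 4131 ± 32.5 in nondiabetic rats at 10 weeks, and 5452 ± 155 in diabetic and 4441 ± 94.4 in nondiabetic rats at 20 weeks (SD, n = 3 each). The lowest were Mlph (-0.946), Hspbap1 (-0.944), Tmem37 (-0.935), Mtmr10 (-0.933) and Rpp25 (-0.932). For Ptgds the highest were Fbxo38 (0.912), Vps35l (0.892), Ankrd46 (0.887), Agtpbp1 (0.884) and Agxt2 (0.875). The lowest for Ptgds were Fam241b (-0.898), Ccdc113 (-0.896), Pyroxd2 (-0.896), Chchd6 (-0.885) and Gchfr (-0.882). Agxt2, a mitochondrial aminotransferase of the kidney, averaged 15445 ± 238 in diabetic and 17330 ± 1060 in nondiabetic rats at 10 weeks, and 14504 ± 1727 in diabetic and 16498 ± 1535 in nondiabetic rats at 20 weeks.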

How the data were processed

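Biotin-labelled cRNA of each cortex sample was hybridised in 1 colour to 1 array, per the labels' protocols. The authors deposited linear signal intensity per probe set made with GCOS, per the submitters' processing notes. The GCOS version is not given in the sources used here, nor are detection calls. Trimming 2% at each end gave a mean of 500.2 on every array, so the deposited values had been scaled and were used as given. Depth does not apply to arrays, and the 3 arrays a group limit the precision. Such scaling hides any change shared by most transcripts.

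The table held 31099 probe sets, of which 57 controls were left out. A floor of 1 was applied to 424 lower signals, and values were then log2-transformed. The dimmest 40% by mean log2 signal were left out. The remaining 18625 were fitted in 1 limma model over the 4 groups (limma 3.58.1, R 4.3.3, trended eBayes, 8 residual degrees of freedom), and the model was tested on simulated data. Genes were named by the platform annotation, with symbols brought up to date from RefSeq identifiers, and a probe set with several genes was left unnamed. The members and all lists were chosen with earlier results of these data known. Named were all member probe sets, pathway genes called in a comparison, marker genes called where a member was called, and the 5 genes with the highest and the 5 with the lowest r for Slco2a1 and Ptgds. Same-numbered arrays of diabetic and nondiabetic rats had deviations that correlated at 0.022 to 0.149 at 10 weeks and -0.043 to 0.141 at 20 weeks, so the numbers were not taken to pair samples. The alternatives tried were quantile normalization, median centring, an offset of 16 before log2, no filter, a filter of 60%, no intensity trend, robust eBayes, array weights, only the groups compared, a replicate block, leaving out each array, both doubted arrays left out and the Gapdh ratio as a covariate, the last 2 chosen after seeing the data.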

Additional observations from a re-analysis of the deposited data

How the results depend on the processing

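The planned counts took in all 11 prostaglandin probe sets past the filter. Every call among them was of Slco2a1 or Ptgds, whose contrasts selected the set, so the counts describe the settings and are no test. The 8 other probe sets had no call under any alternative. The count of 1 at 10 weeks (Slco2a1) became 0 with no intensity trend, 0 with the replicate block and 0 with both doubted arrays left out. Leaving out 1 array at a time gave 0 to 1 at 10 weeks, with 0 without nondiabetic replicate 1 or 2 or diabetic replicate 1 or 2. At 20 weeks (main count 1) it gave 0 to 1, with 0 without diabetic replicate 3. Over both ages (main count 3) it gave 1 to 3, with 1 without diabetic replicate 1 of 10 weeks or diabetic replicate 1 or 3 of 20 weeks. With the replicate block the counts were 1 at 20 weeks and 3 over both ages. A block could not be fitted for the age contrasts, since each number lies within an age, nor could the groups of 1 comparison alone for the contrasts that need all 4. No called value of the 11 changed direction, and the cause of each lost call was not tested. Pathway and marker genes were not run under the alternatives.

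Over all probe sets, the 57 calls at 10 weeks were 5 to 115 with 1 array left out, 7 with no intensity trend, 9 with only the groups compared, 23 with the replicate block and 10 without both doubted arrays. The 529 at 20 weeks were 194 to 520 with 1 array left out (fewest without diabetic replicate 3), 191 with no trend, 309 with only the groups compared and 331 without both doubted arrays. The 833 over both ages were 525 to 823 with 1 array left out, 502 with no trend and 490 without both doubted arrays. The 123 of the age contrast in diabetic rats were 7 to 118 with 1 array left out, 5 with no trend, 7 with the Gapdh covariate, 27 without both doubted arrays, 62 with quantile normalization, 75 with no filter, 238 with median centring and 239 with array weights. With 1 array left out, the 0 of the age contrast in nondiabetic rats was at most 9 and the 0 for the difference between ages at most 2. The Gapdh covariate gave 3 for that difference, and median centring gave 1 in the age contrast of nondiabetic rats. Median centring moved the median at 10 weeks to 0.09, against -0.02, with 34 calls higher and 9 lower, against 23 higher and 34 lower. In the age contrast of diabetic rats it moved the median to -0.10, against 0.02, with 34 higher and 204 lower, against 46 higher and 77 lower. It moved the median of the difference between ages to -0.14, against 0.00. Over both ages it gave 456 higher and 283 lower, against 398 higher and 435 lower. Dim probe sets, and 3 arrays a group, limit what could be called.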
